A study of Mus musculus with 6 samples.

Results

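The PRL phosphatases, the CNNM proteins they bind and a channel and a transporter of magnesium were followed in fetal liver cells with and without PRL2. The 8 genes were taken by symbol from the 12579 genes of the deposited count table. They are Ptp4a1, Ptp4a2 and Ptp4a3, which encode PRL1, PRL2 and PRL3; Cnnm2, Cnnm3 and Cnnm4; Trpm7; and Slc41a1. RNA was sequenced from 3 Prl2-/- and 3 Prl2+/+ libraries of mouse fetal liver at E14.5, labelled as haematopoietic stem and progenitor cells. The labels name no other allele, no treatment and no strain, and they do not describe how the Prl2-/- allele was made. Nor do they tie each library to an embryo of its own, so the spread behind the p-values is that of the libraries and may be partly technical.

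PRL phosphatases are small enzymes of the protein tyrosine phosphatase superfamily that a prenyl group anchors to membranes. They bind the cytoplasmic part of CNNM proteins, membrane proteins that move magnesium out of cells, and the binding restrains that transport. TRPM7, an ion channel fused to a protein kinase, lets magnesium in, and SLC41A1 exchanges magnesium for sodium at the plasma membrane. PRL2 is known in blood formation from its part in signalling by the receptor KIT.

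The enzyme's signature, a loop that runs from the catalytic cysteine to an arginine, is shown because it places the 3 paralogues in 1 family while their RNA remains distinguishable. Capitals mark the codons from that cysteine to that arginine in GENCODE M21 transcripts of the mouse build GRCm38, 5′ to 3′.
Ptp4a1 loop: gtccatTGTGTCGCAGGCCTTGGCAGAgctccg
Ptp4a2 loop: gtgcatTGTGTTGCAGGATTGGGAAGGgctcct
Ptp4a3 loop: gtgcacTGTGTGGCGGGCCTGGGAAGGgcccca
The last codons are shown because they carry the signal for prenylation, which begins at a cysteine; capitals mark the last 4 codons before the stop.
Ptp4a1 end: catagaaacaacTGTTGTATTCAAtaa
Ptp4a2 end: accaatgggcacTGCTGTGTTCAGtag
Ptp4a3 end: cacaagaccagaTGCTGCGTCATGtag
The loop differed between paralogues at the level of bases: 15 of its 21 bases were the same in Ptp4a1 and Ptp4a2, 17 of 21 in Ptp4a2 and Ptp4a3 and 16 of 21 in Ptp4a1 and Ptp4a3. Over the whole coding sequence, 76.0% of aligned bases were identical between Ptp4a1 and Ptp4a2, against 68.9% between Ptp4a2 and Ptp4a3. The longest run of identical bases between any of these 3 transcripts was 18 bases, so an exact match longer than that belonged to 1 of them alone.

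Libraries held 29525301 to 37026282 counts in Prl2-/- and 25965111 to 33613949 in Prl2+/+. All 12 stem and progenitor markers were measured, and Kit stood at 204 to 229 CPM (counts scaled to one library total) in Prl2-/- and 190 to 244 CPM in Prl2+/+. Summed, the 12 stood at 985 to 1025 CPM in Prl2-/- and 898 to 1026 CPM in Prl2+/+. The 8 granulocyte-monocyte precursor markers summed to 15027 to 17666.5 CPM in Prl2-/- and 12638 to 16120 CPM in Prl2+/+. The 11 erythroid markers measured summed to 548 to 1509 CPM in Prl2-/- and 556 to 1129 CPM in Prl2+/+. Hepatoblast markers, of which 15 of 16 were measured, ranged in summed level from 67.3 to 2712 CPM in Prl2-/- and from 156 to 4763 CPM in Prl2+/+, and 1 of them was at 0 in a library. Prl2-/- replicate 2 and Prl2+/+ replicate 1 had the highest level of their genotype. In bulk RNA, fewer cells of a type cannot be told apart from less RNA per cell.

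Ptp4a2, on chromosome 4 (129820479 to 129850003, plus strand, GRCm38), checks the genotype of each library. In Prl2-/- replicates 1 to 3 it had 44, 38 and 38 counts, against 8088, 9906 and 8135 in Prl2+/+ replicates 1 to 3. The 3 Prl2-/- libraries stood at one low level, far below the 3 Prl2+/+ libraries. The mean of the Prl2-/- libraries was 0.386% of that of the Prl2+/+ libraries in CPM, a 259-fold lower level. The log2 fold change of Prl2-/- over Prl2+/+ was -8.02 ± 0.098 (SE), with an adjusted p of 3.31e-07 in edgeR's quasi-likelihood test with Benjamini-Hochberg adjustment. It was the single gene of the 8 to pass an adjusted p of 0.05. Of 12576 genes tested, 5 passed, a share of 0.0398%, or 0.0239% for genes lower in Prl2-/- and 0.0159% for genes higher in it. GENCODE M21 transcripts of another gene, Gm13422, held 75 of the 4387 distinct words of 50 bases in Ptp4a2 transcripts (1.71%), so part of the remaining count cannot be assigned with certainty.

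**Figure D1:**
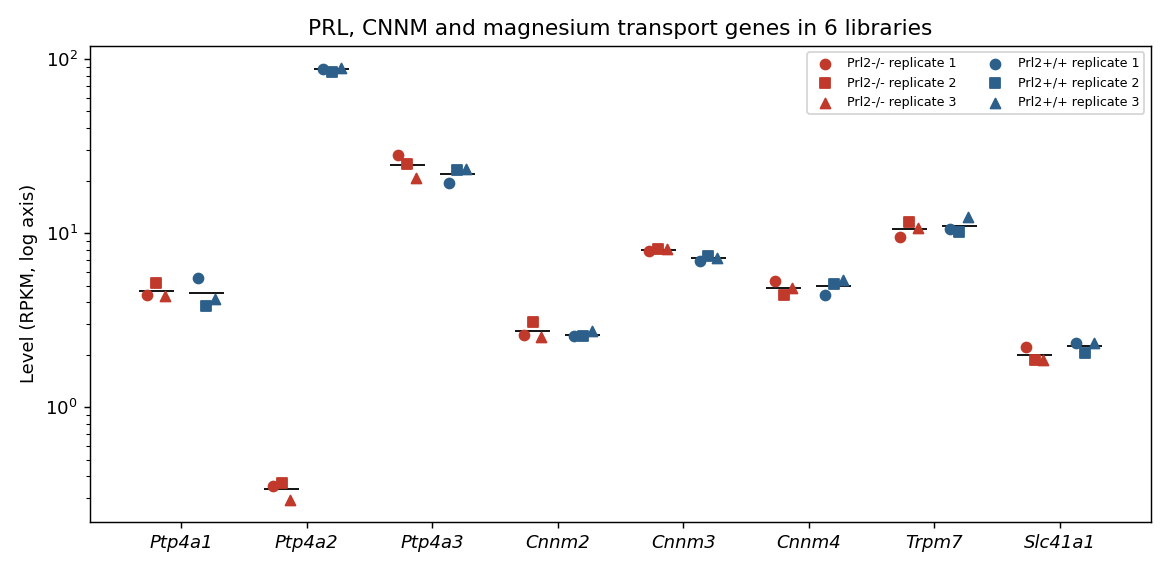
Level of each of the 8 genes in RPKM, that is CPM per kilobase of exon (log axis), with Prl2-/- in red left of Prl2+/+ in blue; each symbol is a library and each line a mean. Ptp4a2 separates the genotypes, at 0.337 RPKM in Prl2-/- and 87.2 RPKM in Prl2+/+, and Cnnm3 is the other gene whose libraries do not overlap.

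Levels of different genes were compared per length of exon, as RPKM, which is CPM divided by the exon length in kilobases. In Prl2-/- cells Ptp4a3 stood first among the 8 genes, at 24.5 ± 3.72 RPKM (SD, n = 3). Trpm7 followed at 10.6 ± 1.03 RPKM, Cnnm3 at 8.05 ± 0.124, Cnnm4 at 4.84 ± 0.437, Ptp4a1 at 4.65 ± 0.448, Cnnm2 at 2.74 ± 0.289 and Slc41a1 at 1.99 ± 0.200 RPKM, and Ptp4a2 was last at 0.337 ± 0.039 RPKM (SD, n = 3 each). In Prl2+/+ cells Ptp4a2 stood first, at 87.2 ± 2.80 RPKM (SD, n = 3), above 90.8% of the genes in the table. Ptp4a3 followed at 21.9 ± 2.21 RPKM, Trpm7 at 11.0 ± 1.19, Cnnm3 at 7.15 ± 0.253, Cnnm4 at 4.96 ± 0.498, Ptp4a1 at 4.51 ± 0.904, Cnnm2 at 2.62 ± 0.0988 and Slc41a1 at 2.25 ± 0.166 RPKM (SD, n = 3 each). The order of the 7 genes other than Ptp4a2 was thus the same in both genotypes. In each genotype the libraries of a gene lay apart from those of the next in order, except that Cnnm4 and Ptp4a1 overlapped.

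Ptp4a2 held most of the PRL level of cells that had the gene. Of the summed RPKM of the 3 paralogues, it held 1.14 ± 0.067% in Prl2-/- and 76.8 ± 1.12% in Prl2+/+ (SD, n = 3 each). Ptp4a3 held 83.0 ± 2.16% in Prl2-/- and 19.3 ± 1.91% in Prl2+/+. Ptp4a1 held 15.9 ± 2.09% in Prl2-/- and 3.97 ± 0.797% in Prl2+/+. The summed PRL level was 29.5 ± 3.85 RPKM in Prl2-/- and 114 ± 3.07 RPKM in Prl2+/+, so that 26.0% of it was left in Prl2-/-.

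**Figure D2:**
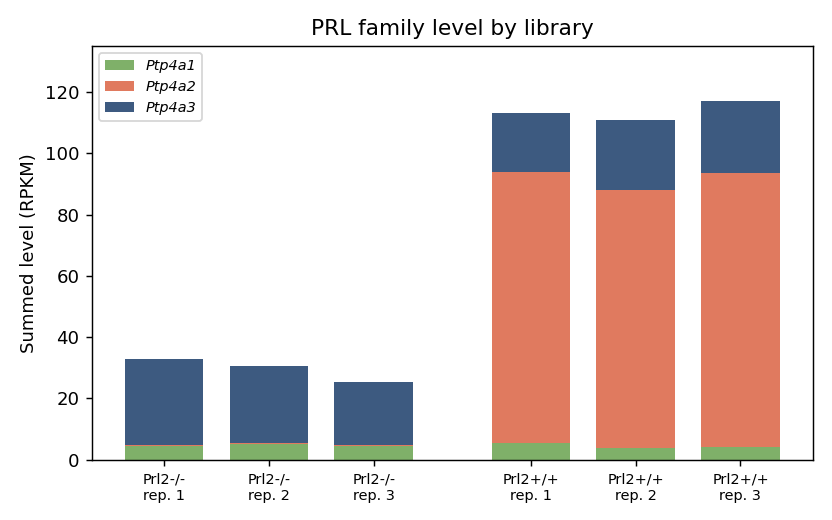
Summed level of the PRL genes in each library (RPKM), stacked by paralogue, with the 3 Prl2-/- libraries left of the 3 Prl2+/+ libraries. The Prl2-/- columns, with a mean of 29.5 RPKM, consist almost wholly of Ptp4a3 and Ptp4a1; the Prl2+/+ columns, with a mean of 114 RPKM, consist mostly of Ptp4a2.

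Ptp4a3, on chromosome 15 (73723145 to 73758766, plus strand), encodes PRL3, known for its high level in metastatic tumours. It had 129, 116 and 95.2 CPM in Prl2-/- replicates 1 to 3 and 89.4, 106 and 108 CPM in Prl2+/+ replicates 1 to 3. Prl2-/- replicates 1 and 2 stood above every Prl2+/+ library, and replicate 3 lay among them, so the genotypes overlapped. The log2 fold change was 0.16 ± 0.132 (SE; edgeR adjusted p = 0.899), with a 95% confidence interval of -0.157 to 0.472. On a linear scale the interval ran from 0.897 to 1.39 times the Prl2+/+ level, which leaves out a doubling. The log2 fold change was 0.050 without Prl2-/- replicate 1, 0.27 without Prl2-/- replicate 3, 0.071 without Prl2+/+ replicate 1 and 0.062 without the 2 libraries richest in hepatoblast markers (edgeR adjusted p of 0.860 to 0.999).

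Ptp4a1, on chromosome 1 (30940303 to 30949755, minus strand), encodes PRL1, first described in regenerating rat liver. It had 18.2, 21.3 and 18.0 CPM in Prl2-/- replicates 1 to 3 and 22.8, 15.6 and 17.4 CPM in Prl2+/+ replicates 1 to 3. The Prl2-/- libraries all lay within the Prl2+/+ range. Its log2 fold change was 0.042 ± 0.154 (SE; edgeR adjusted p = 0.962), and the interval ran from 0.799 to 1.33 times the Prl2+/+ level. The 2 highest values belonged to Prl2-/- replicate 2 and Prl2+/+ replicate 1, the libraries highest in hepatoblast markers (mean log2 CPM of 5.57 and 6.72, against -0.55 to 3.98 in the other 4). With those libraries left out, the log2 fold change was 0.13 ± 0.136 (SE; edgeR adjusted p = 0.997). Of the other 4, Prl2+/+ replicate 2 was richest in these markers (3.98) and had the lowest Ptp4a1 value of all, 15.6 CPM. The part of hepatoblasts in the Ptp4a1 values was not tested. The Ptp4a1 count carries a further limit: GENCODE M21 holds overlapping gene models of that name, with 3922 of the 4129 exon bases in both. The annotation used for counting was not named. If it held both models, reads in the shared bases may have gone uncounted. The Ptp4a1 level, and the PRL shares and sums that include it, carry this limit. Of its 5806 words of 50 bases, 473 (8.15%) also occur in transcripts of other genes, among them Gm15801 and Gm8783.

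Neither paralogue therefore passed as changed when Ptp4a2 was lost. Together Ptp4a1 and Ptp4a3 summed to 29.2 ± 3.82 RPKM in Prl2-/- and 26.4 ± 1.38 RPKM in Prl2+/+ (SD, n = 3 each). The difference of 2.79 RPKM equals 3.21% of the 86.9 RPKM by which Ptp4a2 was lower. It was 1.18 RPKM without Prl2-/- replicate 1, 4.90 RPKM without Prl2-/- replicate 3 and 1.52 RPKM without the 2 libraries richest in hepatoblast markers. At the upper ends of both intervals, with all libraries, it would be 9.96 RPKM, or 11.5%. These are levels of RNA, and protein was not measured.

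None of the 3 CNNM genes passed the test. Their summed level was 15.6 ± 0.147 RPKM in Prl2-/- and 14.7 ± 0.783 RPKM in Prl2+/+ (SD, n = 3 each). The summed PRL level was 1.89 ± 0.231 times the summed CNNM level in Prl2-/- and 7.73 ± 0.408 times in Prl2+/+. Cnnm3 held 51.5 ± 1.24% of the CNNM level in Prl2-/- and 48.6 ± 1.31% in Prl2+/+. Cnnm4 came next at 30.95 ± 2.61% in Prl2-/- and 33.6 ± 1.64% in Prl2+/+, and Cnnm2 last at 17.5 ± 1.87% in Prl2-/- and 17.8 ± 0.755% in Prl2+/+. Cnnm1, the remaining gene of the family, was not analysed here.

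Cnnm3, on chromosome 1 (36511876 to 36528237, plus strand), encodes a CNNM protein that PRL2 binds in human cancer cells. It had 41.8, 42.9 and 42.9 CPM in Prl2-/- replicates 1 to 3 and 36.3, 38.9 and 38.1 CPM in Prl2+/+ replicates 1 to 3. All 3 Prl2-/- libraries stood above all 3 Prl2+/+ libraries, a pattern that 6.87% of the 12576 genes tested also had in that direction. The log2 fold change was 0.17 ± 0.061 (SE), a level 1.12 times that of Prl2+/+, with a 95% confidence interval of 0.019 to 0.311. The unadjusted p was 0.0318 and the edgeR adjusted p 0.899, so the difference did not pass. An unadjusted p under 0.05 was held by 4.60% of all genes tested. Without the 2 libraries rich in hepatoblast markers the log2 fold change was 0.13 (edgeR unadjusted p = 0.238, adjusted p = 0.997). The edgeR unadjusted p was 0.0774 with the hepatoblast level as a covariate and 0.0684 with the replicate number as a block. It was 0.0382 to 0.124 with 1 library omitted, and 0.0272 to 0.0324 with other scalings and filters.

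Cnnm3 was also the steadiest of the 8 between libraries of 1 genotype. Its within-genotype SD was 0.047 on the log2 CPM scale, against a median of 0.143 for all genes tested, and 3.98% of genes had a smaller one. An antisense gene model, Gm38033, covers 269 of its exon bases, and since the library method does not mark strand, reads of both cannot be told apart there.

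Cnnm4 lies 3099 bases upstream of Cnnm3 on the same strand of chromosome 1 (36471597 to 36508776). It encodes a magnesium exporter of the intestinal epithelium. It had 24.2, 20.2 and 22.1 CPM in Prl2-/- replicates 1 to 3 and 20.2, 23.4 and 24.6 CPM in Prl2+/+ replicates 1 to 3. The genotypes overlapped over most of their range, and the log2 fold change was -0.04 ± 0.116 (SE; edgeR adjusted p = 0.947), between 0.802 and 1.18 times the Prl2+/+ level. Its 2 lowest values belonged to Prl2-/- replicate 2 and Prl2+/+ replicate 1, the same libraries in which Ptp4a1 was highest and hepatoblast markers were richest. The same libraries were the lowest in the 10 B-lineage markers (mean log2 CPM of 2.03 and 2.78, against 2.88 to 4.65 in the other 4), and Cnnm4 was highest in the pair with the most of them, Prl2-/- replicate 1 and Prl2+/+ replicate 3. The part of B-lineage cells in the Cnnm4 values was not tested. With the hepatoblast level as a covariate the log2 fold change was -0.12 (edgeR adjusted p = 0.973). A gene model on the same strand, Gm47280, shares 141 of its exon bases.

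Cnnm2, on chromosome 19 (46761609 to 46878580, plus strand), is known for its role in magnesium handling by the kidney. It had 8.66, 10.2 and 8.48 CPM in Prl2-/- replicates 1 to 3 and 8.53, 8.51 and 9.09 CPM in Prl2+/+ replicates 1 to 3. Prl2-/- replicate 2 was the highest library, and the other 5 lay close together. Its log2 fold change was 0.061 ± 0.132 (SE; edgeR adjusted p = 0.929), between 0.839 and 1.30 times the Prl2+/+ level.

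**Figure D3:**
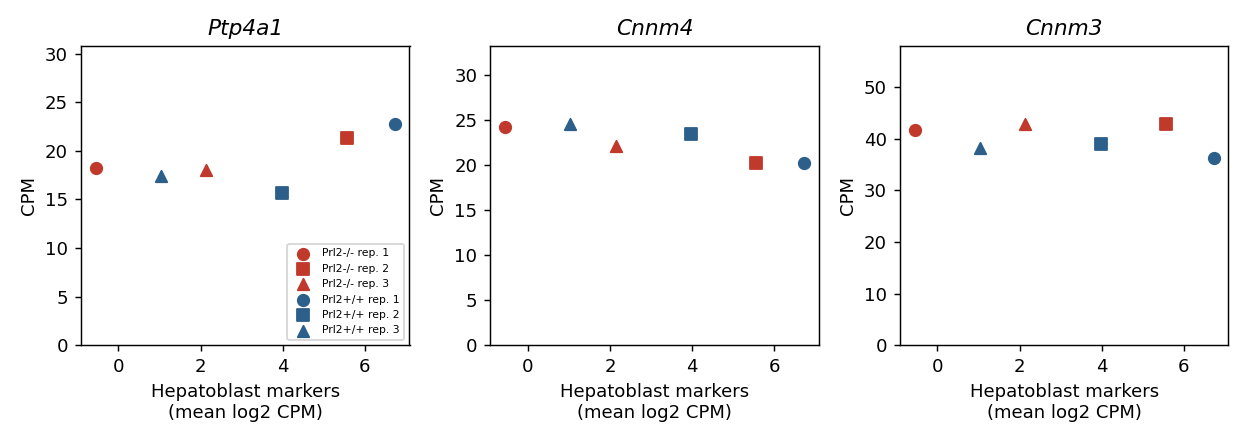
Ptp4a1, Cnnm4 and Cnnm3 (CPM, vertical axes from 0) against the mean log2 CPM of 15 hepatoblast markers in each library, with Prl2-/- in red and Prl2+/+ in blue. The 2 libraries richest in hepatoblast markers have the highest Ptp4a1 (21.3 CPM in Prl2-/- replicate 2 and 22.8 CPM in Prl2+/+ replicate 1) and the lowest Cnnm4 (both 20.2 CPM), while Cnnm3 lies higher in the Prl2-/- libraries at each end of the range. Prl2+/+ replicate 2, the next richest in these markers, has the lowest Ptp4a1 (15.6 CPM).

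Trpm7, on chromosome 2 (126791558 to 126876261, minus strand), stood higher than Slc41a1 in RPKM. It had 67.9, 82.5 and 76.5 CPM in Prl2-/- replicates 1 to 3 and 75.1, 72.2 and 88.2 CPM in Prl2+/+ replicates 1 to 3. The libraries of the genotypes were interleaved, and the log2 fold change was -0.06 ± 0.104 (SE; edgeR adjusted p = 0.917), between 0.808 and 1.14 times the Prl2+/+ level.

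Slc41a1, on chromosome 1 (131828012 to 131848864, plus strand), had 10.3, 8.74 and 8.70 CPM in Prl2-/- replicates 1 to 3 and 10.9, 9.58 and 10.9 CPM in Prl2+/+ replicates 1 to 3. Prl2-/- replicates 2 and 3 were the lowest libraries, and Prl2-/- replicate 1 lay within the Prl2+/+ range. The log2 fold change was -0.18 ± 0.133 (SE; edgeR adjusted p = 0.899), between 0.707 and 1.10 times the Prl2+/+ level.

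Besides Ptp4a2, then, 0 of 7 genes passed in edgeR's quasi-likelihood test. The same count was 0 with DESeq2, with the edgeR likelihood ratio test and with limma-voom. An unadjusted p under 0.05 was held by 1 of 7 (Cnnm3) in the quasi-likelihood test, where 4.60% of all genes had one. It was also held by 1 of 7 with limma-voom and by 0 of 7 with DESeq2 and with the likelihood ratio test. Their median log2 fold change was 0.042, with 4 estimates above 0 and 3 below. Over all genes tested the median was -0.0006, with quartiles of -0.12 and 0.093.

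None of the other magnesium channels and transporters passed either. Of 16 listed genes 11 were measured, and 0 of 11 passed in edgeR, DESeq2, the edgeR likelihood ratio test or limma-voom. Their median log2 fold change was 0.0004, from 6 estimates above 0 and 5 below it. Magt1, which is also a subunit of the oligosaccharyltransferase, stood at 132 to 165 CPM in Prl2-/- and 149 to 177 CPM in Prl2+/+. The log2 fold change of Mrs2, the magnesium channel of the inner mitochondrial membrane, was -0.10 ± 0.067 (SE; edgeR adjusted p = 0.899). Of the 11, 3 had an unadjusted p under 0.05 in the quasi-likelihood test and libraries that did not overlap, all higher in Prl2-/-: Nipal3, Mmgt1 and Mmgt2, the last named after its values were seen. Over all genes tested, 4.60% had such a p and 6.87% lay higher without overlap. The count under 0.05 was 2 with DESeq2 and with limma-voom (Nipal3 and Mmgt1) and 1 with the likelihood ratio test (Nipal3).

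Nipal3, a member of the NIPA family of magnesium transporters, had 11.5, 11.6 and 9.45 CPM in Prl2-/- replicates 1 to 3 and 6.69, 7.97 and 7.01 CPM in Prl2+/+ replicates 1 to 3. Its log2 fold change was 0.58 ± 0.149 (SE; unadjusted p = 0.00631, edgeR adjusted p = 0.899). It lies on chromosome 4 (135448901 to 135494504), 5.60 Mb beyond the end of Ptp4a2, and the part of this position in its values was not tested. Mmgt1, which is also a subunit of the membrane protein complex of the endoplasmic reticulum, had 55.7, 55.2 and 50.6 CPM in Prl2-/- replicates 1 to 3 and 48.7, 43.4 and 46.7 CPM in Prl2+/+ replicates 1 to 3. Its difference on the log2 scale was 0.21 ± 0.068 (SE; edgeR adjusted p = 0.899). Mmgt2 averaged 24.4 ± 1.27 CPM in the Prl2-/- libraries and 21.2 ± 0.663 CPM in the Prl2+/+ libraries (SD, n = 3 each).

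**Figure D4:**
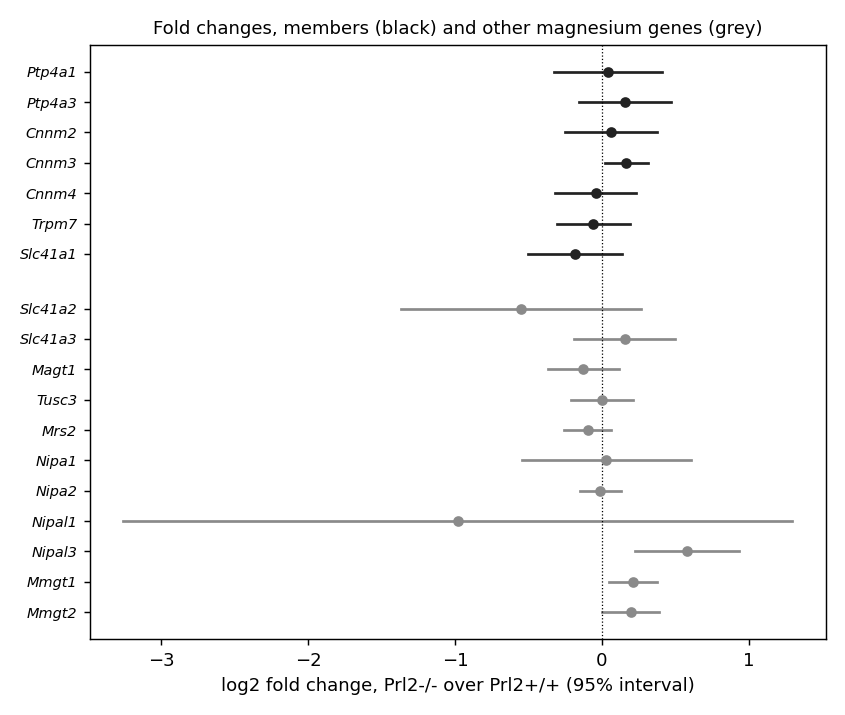
Log2 fold change of Prl2-/- over Prl2+/+ with its 95% confidence interval for the 7 genes other than Ptp4a2 (black) and the 11 other magnesium channels and transporters measured (grey). The intervals of Cnnm3, Nipal3, Mmgt1 and Mmgt2 lie above 0, that of Mmgt2 from 0.0006, and none of the 18 genes passed the adjusted threshold. An interval clear of 0 goes with an unadjusted p under 0.05 in the quasi-likelihood test, which 4.60% of all genes tested had.

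Genes that regulate magnesium transport were sparsely measured, with 4 of 10 in the table and 0 of 4 passed in edgeR, DESeq2, the likelihood ratio test or limma-voom (0 of 4 at an unadjusted p under 0.05). Their median log2 fold change was -0.36, with 0 estimates above 0 and 4 below. The lowest was that of Egfr, at -1.08 ± 1.45 (SE; edgeR adjusted p = 0.908). Egfr, the receptor of the epidermal growth factor that stimulates renal magnesium uptake, had 0.140, 4.88 and 1.46 CPM in Prl2-/- replicates 1 to 3 and 11.7, 1.73 and 0.231 CPM in Prl2+/+ replicates 1 to 3. Pcbd1, known as a cofactor in transcription, had 1.40, 6.54 and 1.54 CPM in Prl2-/- replicates 1 to 3 and 11.5, 2.23 and 1.54 CPM in Prl2+/+ replicates 1 to 3. Both were highest in the library of each genotype with the most hepatoblast markers, whose part in these values was not tested. Arl15, a small GTPase that binds CNNM proteins, stood at a log2 fold change of -0.02 ± 0.110 (SE), with an edgeR adjusted p of 0.977.

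The 5 genes listed for prenylation and later processing of proteins with such carboxy-terminal codons were all measured. Of them, 0 of 5 passed in edgeR, DESeq2, the likelihood ratio test or limma-voom (0 of 5 at an unadjusted p under 0.05). Fntb, the beta subunit of farnesyltransferase, was at 0.14 ± 0.115 (SE) on the log2 fold change scale, and Icmt, the carboxyl methyltransferase, 0.093 ± 0.094 (edgeR adjusted p = 0.899 for each). The median of the 5 was 0.062.

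Of 14 genes whose proteins were linked to PRL phosphatases in earlier work, 1 fell in Prl2-/- and 0 rose, with a median log2 fold change of -0.06. Over all genes tested 0.0239% were called lower and 0.0159% higher. The list was chosen with earlier results of these data known, so its count cannot be read as an excess over those shares. The gene that fell was Stmn1, which encodes the microtubule-destabilising protein stathmin. It averaged 142 ± 4.15 CPM in the Prl2-/- libraries and 315 ± 14.2 CPM in the Prl2+/+ libraries (SD, n = 3 each). The log2 difference was -1.15 ± 0.057 (SE), at an edgeR adjusted p of 0.00186. Stmn1 lies on chromosome 4, 4.62 Mb beyond the end of Ptp4a2, and the part of this position in its values was not tested. The Stmn1 call was lost without the 2 libraries rich in hepatoblast markers, where the log2 fold change was -1.11 (edgeR adjusted p = 0.0677). That fit had 2 libraries per genotype. The call was also lost with the replicate number as a block (edgeR adjusted p = 0.0879). It was kept with the hepatoblast level as a covariate (-1.15, edgeR adjusted p = 0.000866) and with 1 library omitted (edgeR adjusted p of 0.00729 to 0.0288). Itgb1, integrin beta 1, had 300, 380 and 369 CPM in Prl2-/- replicates 1 to 3 and 431, 373 and 383 CPM in Prl2+/+ replicates 1 to 3 (edgeR adjusted p = 0.899).

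Other small cysteine phosphatases did not pass either, with 0 of 10 measured genes called in edgeR, DESeq2, the likelihood ratio test or limma-voom and a median log2 fold change of -0.09. Dusp11, a phosphatase that acts on RNA, had an unadjusted p of 0.0415 in the quasi-likelihood test, the 1 of 10 under 0.05, where 4.60% of all genes were. With DESeq2, the likelihood ratio test and limma-voom 0 of 10 were. It had 52.0, 53.6 and 54.3 CPM in Prl2-/- replicates 1 to 3 and 67.3, 55.1 and 60.5 CPM in Prl2+/+ replicates 1 to 3 (edgeR adjusted p = 0.899); 4.56% of all genes tested lay lower without overlap. Ptpmt1, a phosphatase of mitochondria that acts on a phospholipid precursor of cardiolipin, was at a log2 fold change of 0.072 ± 0.058 (SE), with an edgeR adjusted p of 0.899.

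The genes most like each PRL gene were taken by Pearson correlation of log2 CPM over the 6 libraries, among 10144 genes with a mean of at least 4 CPM. With 6 points per gene and so many genes, high values arise readily, and they are given as a description. Ptp4a2 was most like Stmn1 (r = 0.995), Ick (0.992) and Hmgn2 (0.992). Each of them stood at one level in Prl2-/- and a higher one in Prl2+/+, as Ptp4a2 did, a pattern that their choice by likeness to Ptp4a2 brings with it. Of all genes tested, 4.56% lay lower in Prl2-/- without overlap. Ick, a protein kinase gene on chromosome 9, had 9.27, 9.28 and 9.18 CPM in Prl2-/- replicates 1 to 3 and 11.8, 11.3 and 12.1 CPM in Prl2+/+ replicates 1 to 3, and differed by -0.35 ± 0.105 (SE) on the log2 scale (edgeR adjusted p = 0.899). Hmgn2, a nucleosome-binding protein gene, differed by -1.58 ± 0.083 (SE; edgeR adjusted p = 0.00186). It lies on chromosome 4 (133964739 to 133967991), between Ptp4a2 and Stmn1. The part of this position in its values was not tested. The Hmgn2 call was lost without the 2 hepatoblast-rich libraries (-1.53, edgeR adjusted p = 0.0677) and with the replicate number as a block (edgeR adjusted p = 0.0879). It was kept with the hepatoblast level as a covariate (-1.55, edgeR adjusted p = 0.00075) and with 1 library omitted (edgeR adjusted p of 0.00729 to 0.0289). Ptp4a3 was most like Nudcd2 (r = 0.995), Tigd5 (0.994) and Mrpl19 (0.992), and Ptp4a1 most like Slc25a15 (0.982), Glrx3 (0.973) and Gm4944 (0.970), with edgeR adjusted p of 0.899 to 0.997 for these 6.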

How the data were processed

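RNA of 3 Prl2-/- and 3 Prl2+/+ fetal liver samples was converted to cDNA by template switching and tagmented, per the labels' protocols. The deposited values are raw counts per gene, per the file headers; STAR and featureCounts are named in the submitters' processing notes. The genome build, read length, versions and settings used were not stated in the sources at hand. Exon lengths in the deposited table equalled the union of its listed exons for all 12579 genes. Of 12135 symbols shared with GENCODE M21 (GRCm38), 12126 overlapped the annotated position, so positions are given on GRCm38. Every gene reached 0.231 CPM in at least 3 libraries, which is a floor on abundance already present in the table; a gene outside it was not analysed here.

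Counts were filtered with filterByExpr (12576 genes left, the 8 genes among them) and scaled with TMM, with factors from 0.991 to 1.01. The test was that of edgeR 4.0.16 in R 4.3.3 by the quasi-likelihood F statistic, with no covariate. P-values were adjusted over all genes (threshold 0.05). SE was obtained by dividing the log2 difference by the root of F. CPM and RPKM use library totals. Library pairs differed by a chi-square of at least 19.7 per gene, more than repeated sequencing of the same library would give. Each was counted as a sample, although this value cannot tell whether libraries shared an embryo. The workflow was tested on simulated counts drawn for each gene on its own, without shifts in cell type shared between genes. That test does not cover such shifts. Same-numbered samples of the genotypes did not deviate together (correlations -0.64, 0.21 and 0.17), and the fit is unpaired. Differently numbered samples had correlations from -0.813 to 0.745, so the check cannot tell whether samples shared a batch. Alternatives were other scalings and filters, DESeq2 1.42.0, the likelihood ratio test, limma-voom 3.58.1, the replicate block, the hepatoblast level as a covariate, and libraries left out.

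Genes and lists were chosen with earlier results of these data known. The genes named are the 8; from each list every called member and the 2 with the smallest p; and the 3 genes most like each PRL gene, by Pearson correlation of log2 CPM (prior count 2). Others are examples from the lists. Some items of the lists are not reported here.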

Additional observations from a re-analysis of the deposited data

How the results depend on the processing

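Over 16 alternatives, 119 of 128 member values kept their direction and their side of the threshold, 9 turned direction, and 0 gained or lost a call. Ptp4a2 was called in all 16 (log2 fold change -8.08 to -7.93). Cnnm3, Ptp4a3 and Slc41a1 kept their direction, with edgeR, DESeq2 or limma adjusted p of 0.775 or more. The 9 that turned were not called before or after, and the cause was not tested: Cnnm2 was -0.044 without the 2 hepatoblast-rich libraries, and leaving out 1 library gave -0.066 to 0.21 for Ptp4a1, -0.025 to 0.11 for Cnnm2, -0.13 to 0.025 for Cnnm4 and -0.12 to 0.035 for Trpm7. The 5 genes called in all (2 higher, 3 lower) became 36 with DESeq2 (12 higher, 24 lower) and 21 with the likelihood ratio test (9 higher, 12 lower), the 5 among them in both; limma-voom had 1 higher gene. Fits without the 2 hepatoblast-rich libraries, with 2 per genotype, and with the replicate block each called 1 gene (0 higher, 1 lower), Ptp4a2; under the block no other of the 8 genes changed its call, and Stmn1 and Hmgn2 lost theirs (edgeR adjusted p = 0.0879 for each). With 1 library omitted the count was 3 to 4 (0 to 1 higher, 3 lower), and it was 3 without Prl2-/- replicate 1 or 3 or Prl2+/+ replicate 1 or 2. Without division by length, Ptp4a2 held 0.885% of the PRL level in Prl2-/- and 71.9% in Prl2+/+, and Ptp4a3 held 23.8% in Prl2+/+. Leaving out 1 library gave shares of 1.11 to 1.18% in Prl2-/- and 76.1 to 77.2% in Prl2+/+ for Ptp4a2, 81.7 to 83.7% and 18.5 to 20.4% for Ptp4a3, and 15.2 to 17.1% and 3.51 to 4.24% for Ptp4a1. Ptp4a2 aside, counts were as low as 223 in a library (Cnnm2), but intervals did not follow counts alone: the SE was 0.132 for both Cnnm2 and Ptp4a3, although Ptp4a3 had 2338 to 4629 counts. Leaving out libraries for the summed Ptp4a1 and Ptp4a3 level was chosen after seeing the data; the difference was 1.18 to 4.90 RPKM with 1 library omitted.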
